A study of Mus musculus with 42 samples.

Results

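HOXC6 binding was followed from day 3 to day 4 of motor neuron differentiation by sorting the 10000 strongest binding events of each day into kept, gained and lost sites. Events on chromosomes 1 to 19 and X were ranked by their own estimated number of HOXC6 ChIP reads, and an event was kept when the top list of the other day held an event within 100 bp. Of the 10000 day 4 events, 7331 were kept and 2669 (26.7%) were gained. Of the 10000 day 3 events, 6643 were kept and 3357 (33.6%) were lost. The 2 kept counts differ because an event of one day can lie within 100 bp of several events of the other. The full lists held 17898 events on these chromosomes at day 3 and 69285 at day 4, out of 1086685 events in the 21 lists of the series.

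HOXC6 is a homeodomain protein of the central Hox group that marks the brachial (forelimb) level of the spinal cord, where it takes part in giving motor neurons a limb-innervating identity. Central Hox proteins bind a TAAT core, posterior Hox proteins such as HOXC9 and HOXC10 prefer TTTAT, and both often bind next to the TALE cofactors PBX and MEIS. In this differentiation, by the study's account, day 3 holds newborn and day 4 young postmitotic motor neurons. The study also describes interneurons in the culture, so the events are not those of motor neurons alone.

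Mouse embryonic stem cells of the line Ainv15(iFlag.Hoxc6) carry a single doxycycline (Dox)-inducible copy of Hoxc6, with an N-terminal Flag tag, at the Hprt locus. They were grown as embryoid bodies (EBs) with 1 µM retinoic acid and 0.5 µM of the Hedgehog agonist SAG from day 0, and 3 µg/ml Dox was added on day 2. The day 3 group had therefore seen Dox for 24 h and the day 4 group for 48 h, so that developmental stage and length of induction cannot be told apart. The header of the day 4 list names its condition Day6, and the submitters' sample labels, which give day 4, were followed. Both groups had 2 libraries, immunoprecipitated with an anti-Flag antibody. Only the tagged protein was measured, and not HOXC6 made from the gene's own locus. The sample titles number the 2 libraries of each day as replicates 1 and 2.

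The 2 day 3 libraries held 17.73 and 16.38 M reads, and the deposited list headers give signal fractions, the part of the reads assigned to binding events, of 0.080 and 0.070. The 2 day 4 libraries held 15.46 and 17.00 M reads, with fractions of 0.311 and 0.304. The share of reads in events was thus higher in both day 4 libraries than in both day 3 libraries, at similar depth. The control library also differed, with 20.59 M reads for day 3 and 4.72 M for day 4. Both lists pool their 2 libraries, so the intervals below are 95% Wilson intervals on counts of events. They cover counting error only, not the spread between cultures, and no p-values are given.

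The classes describe rank within a day, and most lost sites were still bound at day 4. Of the 3357 lost events, 3261 (97.1%) had a day 4 event of lower rank within 100 bp and 96 (2.86%) had none. Of the 2669 gained events, 1291 (48.4%) had a day 3 event of lower rank and 1378 (51.6%) had none in a day 3 list that was much shorter. Among kept events, at day 4 positions, the median ratio of day 4 to day 3 reads was 3.13. Among lost events with a day 4 partner it was 1.52, and in 715 of them (21.9%) the day 4 estimate was below the day 3 estimate. Among gained events with a day 3 partner it was 5.98. The rank limits bound this ratio from below for gained events and from above for lost events. In the plot of reads on both days, lost sites lie at the weak end of day 3 binding and gained sites at the weak end of day 4 binding, each beside a broad cloud of kept sites.

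**Figure D1:**
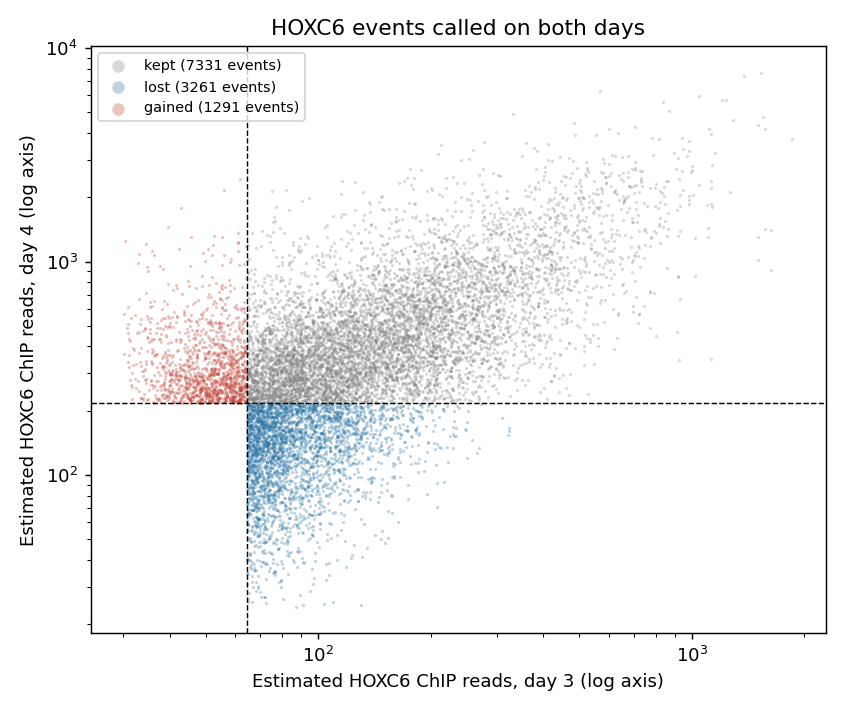
Estimated HOXC6 ChIP reads of each event on day 3 (x axis) and day 4 (y axis), both on log axes, for events called on both days; each point is 1 event (kept at day 4 positions, 7331; gained, 1291; lost, 3261). Dashed lines mark the 10000th event of each day, at 64.5 reads on day 3 and 217 on day 4; the 1378 gained and 96 lost events with no partner are not drawn.

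The median kept event had 138 reads at day 3 (interquartile range 94.5 to 217) and 430.1 at day 4 (306 to 684). The median lost event had 81.6 reads at day 3 (71.4 to 103) and the median gained event 284 at day 4 (243 to 368). Reads chose the classes, so these values only describe them. The strongest 2500 day 3 events held 98 lost events (3.92%), and the weakest 2500 held 1603 (64.1%). The strongest 2500 day 4 events held 152 gained events (6.08%), and the weakest 2500 held 1234 (49.4%). At the rank limit itself, the events ranked 10000 and 10001 had the same 64.5 reads at day 3 and the same 217 reads at day 4. At the distance limit, 52 day 4 events lay 91 to 100 bp from a day 3 top event and 48 lay 101 to 110 bp from one.

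The sequences under the strongest events of each class show how varied these sites are. Each is the 101 bases centred on the event in mm10 (GRCm38), plus strand, with TAAT and TTTAT, on either strand, in capitals. The 3 strongest kept events all had MEIS, HOXC8, HOXC9 and HOXC10 events within 100 bp, and are shown as the peaks of HOXC6 binding.
Kept, near Lhfpl2, chr13:93996715-93996815: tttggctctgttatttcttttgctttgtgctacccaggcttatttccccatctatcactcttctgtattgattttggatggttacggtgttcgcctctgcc
Kept, near Slc35b3, chr13:39524002-39524102: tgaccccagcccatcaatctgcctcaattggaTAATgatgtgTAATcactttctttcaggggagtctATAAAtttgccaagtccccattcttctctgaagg
Kept, near Gpr84, chr15:103305333-103305433: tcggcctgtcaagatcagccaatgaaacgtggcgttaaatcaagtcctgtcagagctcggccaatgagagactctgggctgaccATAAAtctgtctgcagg

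The event near Lhfpl2, 61.0 kb upstream of its transcription start site (TSS), had 1535 reads at day 3 and 7670.5 at day 4, the highest estimate of the day 4 list. Its window held neither TAAT nor TTTAT, but 1 copy of ATCAAT. The intergenic event whose nearest protein-coding gene is Slc35b3, 563 kb away, had 1378 reads at day 3 and 7399 at day 4, and held 2 copies of TAAT. The event 5.23 kb downstream of the Gpr84 TSS, on the chromosome that carries the HoxC cluster, had 568 reads at day 3 and 6321 at day 4. It held no TAAT but 1 TTTAT and 2 copies of the MEIS letters TGACAG.

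Gained sites are shown for the 3 strongest events of the class and for Mnx1 and Isl1, the motor neuron factors with the most gained events.
Gained, in Slc39a11, chr11:113439896-113439996: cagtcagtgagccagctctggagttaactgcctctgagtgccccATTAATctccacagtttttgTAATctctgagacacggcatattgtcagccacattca
Gained, near Fam98a, chr17:75575793-75575893: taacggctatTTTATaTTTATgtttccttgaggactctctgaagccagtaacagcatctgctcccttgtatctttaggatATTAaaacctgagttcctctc
Gained, near Sall1, chr8:89310637-89310737: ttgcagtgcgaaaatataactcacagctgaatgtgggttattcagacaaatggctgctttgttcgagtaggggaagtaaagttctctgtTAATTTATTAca
Gained, near Mnx1, chr5:29486989-29487089: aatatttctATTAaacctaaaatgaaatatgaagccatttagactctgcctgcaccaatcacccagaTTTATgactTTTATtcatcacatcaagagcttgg
Gained, near Isl1, chr13:115948701-115948801: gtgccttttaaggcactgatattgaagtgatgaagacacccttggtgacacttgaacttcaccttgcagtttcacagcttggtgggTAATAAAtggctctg

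The strongest gained event lay in an intron of the zinc transporter gene Slc39a11, with 61.9 reads at day 3 (rank 10482) and 2423 at day 4 (rank 108). Upstream of Fam98a, by 23.9 kb, 56.0 reads at day 3 stood beside 2172 at day 4. Upstream of Sall1, a zinc-finger regulator of kidney and neural development, by 267 kb, 42.8 reads stood beside 1776. All 3 had a partner in the lower ranks of day 3. The strongest gained event near Mnx1, 8.57 kb upstream of its TSS, had 37.7 reads at day 3 and 957 at day 4, and its window held 2 copies of TTTAT and 1 of TAAT. The strongest near Isl1, 355 kb downstream of its TSS, had 602 reads at day 4 and no day 3 event within 100 bp.

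Lost sites are shown for the 3 strongest events of the class and for the cell adhesion gene Ptprd, which had 10 of them.
Lost, in Ghr, chr15:3399049-3399149: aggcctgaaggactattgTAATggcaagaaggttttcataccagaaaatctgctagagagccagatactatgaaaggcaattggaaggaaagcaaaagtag
Lost, near Clnk, chr5:39236954-39237054: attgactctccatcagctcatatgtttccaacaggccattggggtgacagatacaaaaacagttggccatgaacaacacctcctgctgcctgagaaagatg
Lost, in Ncald, chr15:37702103-37702203: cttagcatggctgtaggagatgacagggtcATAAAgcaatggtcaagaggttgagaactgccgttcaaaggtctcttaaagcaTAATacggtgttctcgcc
Lost, near Ptprd, chr4:79310334-79310434: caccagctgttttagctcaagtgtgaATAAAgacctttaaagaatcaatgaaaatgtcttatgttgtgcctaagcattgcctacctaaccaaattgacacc

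The strongest lost event lay in an intron of Ghr, the growth hormone receptor gene, with 324 reads at day 3 (rank 754) and 166 at day 4 (rank 13539). The event 360.2 kb upstream of Clnk had 324 and 161 reads and that in an intron of Ncald, which encodes a neuronal calcium sensor, 322 and 153. All 3 had a lower estimate at day 4, as the rule requires of any lost event with more than 217 day 3 reads. All 3 also had a HOXC8 event within 100 bp, and none had a MEIS event there. The strongest lost event near Ptprd, 1098 kb upstream of the TSS, had 164 reads at day 3 and 158 at day 4. Its window held a copy of ATCAAT, a copy of TTTAT and the E-box CAGCTG, but no TAAT.

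Kept, gained and lost sites lay at similar places relative to genes. A TSS of any annotated gene lay within 1 kb of 5.54% of kept events (5.04 to 6.09%), 6.18% of gained events (5.33 to 7.16%) and 5.60% of lost events (4.87 to 6.43%). Introns of protein-coding genes held 41.4% of kept, 42.8% of gained and 41.7% of lost events, and exons 1.56%, 1.50% and 1.67%. The remaining 51.5%, 49.6% and 51.0% were intergenic. The median distance to the nearest protein-coding TSS was 57.1 kb for kept, 57.7 kb for gained and 52.1 kb for lost events. In none of these 4 places did the interval of gained or lost events lie apart from that of kept events. Lost events lay 1 to 10 kb from a TSS somewhat more often, at 30.7% (29.2 to 32.3%) against 28.3% (27.3 to 29.3%) of kept events, with intervals that just overlapped.

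**Figure D2:**
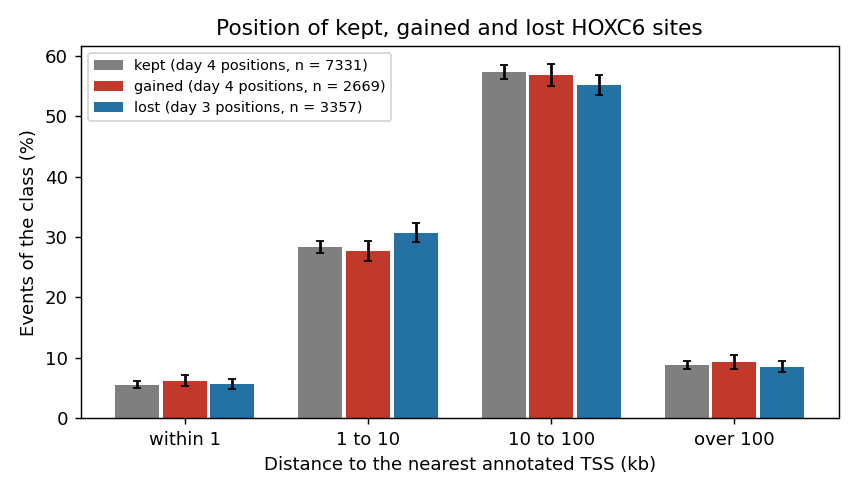
Share of kept, gained and lost HOXC6 events (y axis, %) by distance to the nearest annotated TSS (x axis, kb); bars are shares and error bars 95% Wilson intervals. In each class at least 55.2% of events lie 10 to 100 kb from a TSS and at most 6.18% lie within 1 kb.

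Gained sites had a top event of the other day nearby more often than lost sites did, whereas with events of any rank the order was the opposite. A day 3 top event lay within 1 kb, but not within 100 bp, of 571 gained events (21.4%), and counting day 3 events of any rank, 1778 gained events (66.6%) had a day 3 event within 1 kb. A total of 891 day 4 top events had no day 3 event within 1 kb. For lost events, a day 4 top event lay within 1 kb of 240 (7.15%), and a day 4 event of any rank within 1 kb of 3304 (98.4%), in a full list that was longer than that of day 3. The median distance to the nearest top event of the other day was 34.2 kb for gained and 68.6 kb for lost events. The gained site at Isl1 shown above, at chr13:115948751, is an example. A kept event close beside it, at chr13:115948599 and also 355 kb from the TSS, had 1341 reads at day 4, against 191 at day 3.

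By chromosome, the share of day 4 events that were gained ran from 23.0% on X to 34.1% on chromosome 17 (99 of 290, 28.9 to 39.8%), against 26.7% overall. The share of day 3 events that were lost ran from 30.2% on chromosome 18 to 45.6% on X (77 of 169, 38.2 to 53.1%), against 33.6% overall. X, which also carries the inducible transgene at Hprt, held 126 of the day 4 events and 169 of the day 3 events.

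The letters under the events differed more between the classes than their positions. TAAT stood within 50 bp of 78.1% of kept events (77.1 to 79.0%), 79.1% of gained events (77.5 to 80.6%) and 69.9% of lost events (68.3 to 71.4%). In windows of the same length 1 kb to either side, the shares were 51.8%, 50.9% and 51.2%. TTTAT, the letters that posterior Hox proteins prefer, stood at 43.7% of kept events (42.5 to 44.8%) and 52.0% of gained events (50.1 to 53.9%), above their flanks at 33.2% and 33.1%. At lost events TTTAT stood at 33.8% (32.3 to 35.5%), close to the flanking 32.1%. The composite PBX-HOX letters TGATTNAT had the same order, with 8.53% of kept, 11.4% of gained and 5.78% of lost events (5.04 to 6.62%), over flanks of 2.08%, 1.97% and 1.65%. TAAT and TTTAT can overlap, as in TTTATTA, and each was counted alone.

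Lost sites carried other sets of letters more often. ATCAAT, a core bound by the ONECUT factors of early motor neurons, stood at 23.9% of lost events (22.5 to 25.4%), 15.9% of kept (15.0 to 16.7%) and 12.9% of gained events (11.7 to 14.2%), over flanks of 5.05%, 4.72% and 5.08%. ATCAAT is also part of TGATTGAT read on the other strand, and with those copies left out it still stood at 22.7% of lost, 14.5% of kept and 11.6% of gained events. The E-box CAGATG, of the kind bound by the proneural factor NEUROG2, stood at 21.3% of lost (19.9 to 22.7%), 17.9% of kept (17.0 to 18.8%) and 14.2% of gained events (12.9 to 15.6%), over flanks of 7.77%, 7.43% and 7.55%. The MEIS letters TGACAG did not separate the classes, with 404 of 3357 lost, 914 of 7331 kept and 353 of 2669 gained events and overlapping intervals. The intervals of TAATTA, of ATCGAT and of ACAAAG also overlapped across the classes. The E-box CAGCTG stood at 12.0% of lost events (lower bound 10.9%), 10.6% of kept (9.93 to 11.3%) and 9.63% of gained events (8.57 to 10.8%), so that the interval of lost events lay just above that of gained events and overlapped that of kept events. TCCCNNGGG, an EBF core, was rarer at lost events (1.88%, 1.47 to 2.39%) than at kept (2.85%, 2.49 to 3.26%) or gained events (3.41%, 2.79 to 4.17%). A match says that the letters are present, not that the factor was bound.

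**Figure D3:**
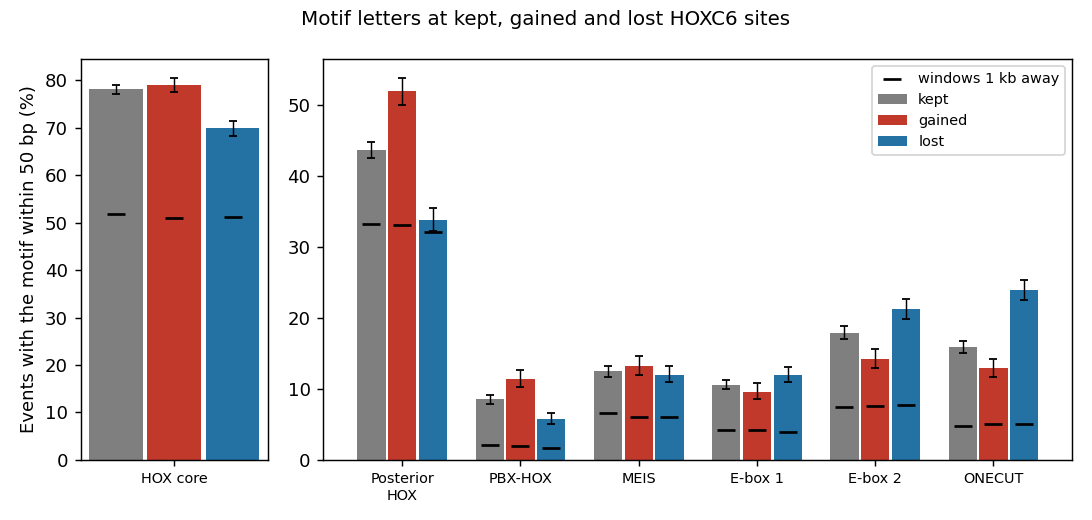
Share of kept, gained and lost HOXC6 events (y axis, %) with the letters of a motif within 50 bp on either strand: HOX core, TAAT; posterior HOX, TTTAT; PBX-HOX, TGATTNAT; MEIS, TGACAG; E-box 1, CAGCTG; E-box 2, CAGATG; ONECUT, ATCAAT. Error bars are 95% Wilson intervals and black dashes the shares in windows 1 kb to either side; TTTAT is highest at gained sites (52.0%) and ATCAAT at lost sites (23.9%), and the panels have separate y axes.

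Because gained and lost events were weaker than kept ones, the same shares were taken among events ranked 5001 to 10000 of their own day. There, TTTAT stood at 51.0% of gained and 41.8% of kept day 4 events, and at 34.6% of lost and 47.1% of kept day 3 events. ATCAAT stood at 11.8% of gained and 16.6% of kept day 4 events, and at 23.0% of lost and 13.8% of kept day 3 events. The order of the classes was thus the same among events of lower rank for both sets of letters.

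MEIS1 and MEIS2 are TALE homeodomain cofactors that bind beside Hox proteins on many enhancers. MEIS binding was measured at day 3 by 1 library in cells with induced V5-tagged HOXC6 (Ainv15(iHoxc6.V5)), and its 8154 events were called against a control library that neither HOXC6 list used. A MEIS event lay within 100 bp of 45.7% of kept events (44.6 to 46.9%), 35.2% of gained events (33.4 to 37.0%) and 13.8% of lost events (12.7 to 15.0%). Day 3 MEIS events were therefore rare at the sites that dropped in rank at day 4, while the shares with the letters TGACAG overlapped between the classes. At the 96 lost events with no day 4 partner the share was 4.17% (4 events). Among events ranked 5001 to 10000, MEIS was at 13.3% of lost against 36.7% of kept day 3 events, and at 30.2% of gained (28.3 to 32.2%) against 32.0% of kept day 4 events (30.4 to 33.8%). The difference between gained and kept sites thus shrank to overlapping intervals at this strength, and that between lost and kept sites did not. MEIS libraries from HOXC9- and HOXC10-induced cells, at 1 library each, gave a MEIS event at 638 and 498 of the 3357 lost events, against 3506 and 3125 of the 7331 kept events.

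HOXC8 is the other central Hox protein of the series and was profiled at day 3 only, against the same control as MEIS. An event of its 44591-event list lay within 100 bp of 98.6% of kept, 91.2% of gained (90.1 to 92.2%) and 94.2% of lost events (93.3 to 94.9%). Of the 1378 gained events with no day 3 HOXC6 event within 100 bp, 1186 (86.1%) had a HOXC8 event at that day. This share lay below those of kept and lost events. The HOXC8 list held 44591 events, against 17898 in the day 3 HOXC6 list. Its libraries had signal fractions of 0.224 and 0.107, against 0.080 and 0.070 for HOXC6 at day 3. The part of list length in the HOXC8 shares was not tested. Among the 10000 strongest HOXC8 events the shares were 82.6% of kept, 47.1% of gained and 41.7% of lost events.

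The posterior proteins HOXC9 and HOXC10 were profiled on both days, with the same control libraries as HOXC6 on each day, and their values are set side by side. The control library thus changed with the day for HOXC6, HOXC9 and HOXC10 alike, and shifts between the days cannot be told apart from it. At day 3, a HOXC9 event lay at 86.2% of kept, 75.8% of gained and 70.2% of lost HOXC6 events. At day 4 the shares were 72.8%, 73.4% and 35.0%. HOXC10 was found at 70.0%, 56.4% and 45.8% at day 3, and at 53.6%, 53.5% and 23.1% at day 4. Both full lists were shorter at day 4, with 44020 against 74067 events for HOXC9 and 22024 against 26859 for HOXC10. Lists of equal length, the 10000 strongest events of each day, put HOXC9 at 23.8% of gained events at day 3 (22.2 to 25.4%) and 38.9% at day 4 (37.1 to 40.8%). At lost events they put HOXC9 at 16.7% (15.5 to 18.0%) and then 7.48% (6.63 to 8.42%), and at kept events at 43.8% and 40.3%. The HOXC10 lists pooled different material: the day 3 list joined 1 library of the V5-tagged line Ainv15(iHoxc10.V5), made with another antibody and with 5.04 M reads and a signal fraction of 0.017, to 2 Flag libraries, and the day 4 list held 4 Flag libraries. Side by side, the top HOXC10 lists of days 3 and 4 lay at 30.0% and 38.6% of gained, 24.2% and 11.8% of lost, and 49.6% and 40.2% of kept events, and the part of the V5 library in these values was not tested.

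**Figure D4:**
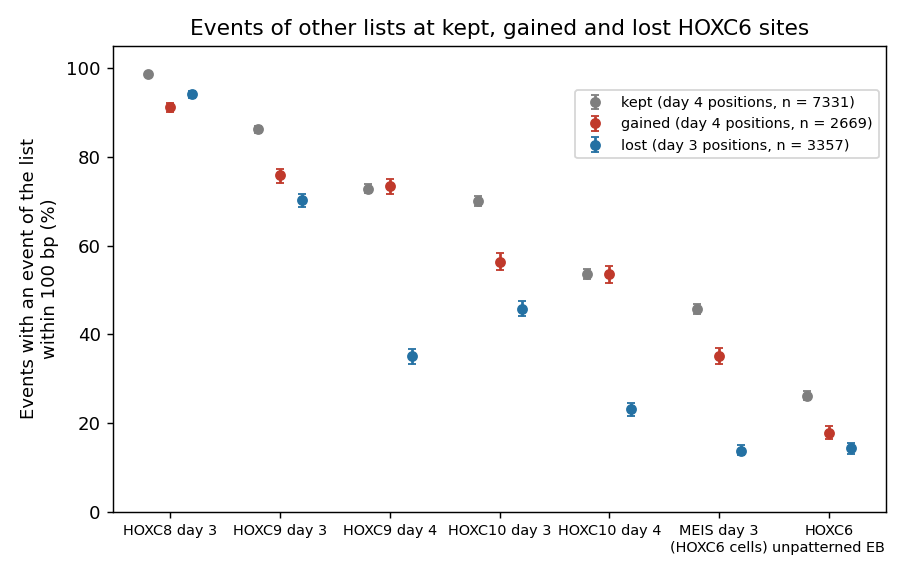
Share of kept (n = 7331), gained (n = 2669) and lost (n = 3357) HOXC6 events (y axis, %) with an event of another full list within 100 bp (x axis); points are shares and error bars 95% Wilson intervals. Lost sites sit furthest below the others for HOXC9 at day 4 (35.0%), HOXC10 at day 4 (23.1%) and MEIS (13.8%).

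HOXC6 was also induced for 12 h in EBs without patterning signals. An event of that list lay at 26.2% of kept (25.2 to 27.2%), 17.8% of gained (16.4 to 19.3%) and 14.3% of lost events. PBX lists came from HOXC9- and HOXC10-induced day 4 cells, at 1 library each, and covered at most 0.487% of any class. They held only 1164 and 848 events, and their libraries had signal fractions of 0.009 and 0.008. The study describes the ChIP signal of its PBX antibody as weak. With lists this short, the low shares cannot show whether PBX was bound at HOXC6 sites.

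At the level of genes, 4482 of 21755 annotated protein-coding genes were the nearest gene of at least 1 top event. Gained events were nearest to 1642 genes and lost events to 2222, and 775 genes had both. Of the genes with a gained event 65.3% also had a kept one, and of those with a lost event 56.1% did. Nearest genes are a naming device, and no gene expression was analysed here.

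The genes with most kept events were Zfp608, a zinc-finger gene (39), Auts2 (33), the nuclear receptor gene Nr2f1 (27), Meis1 (22), the Slit receptor gene Robo2 (22), the ventral progenitor factor Nkx6-1 (20), Arrdc3 (19) and the ephrin gene Efna5 (19). Those with most gained events were Zfp608 (23), Nr2f1 (11), Skap1 (11), which borders the HoxB cluster, Lrmda (9), Tcf4 (9), the neuropeptide gene Adcyap1 (8), Meis1 (8) and the POU factor gene Pou3f3 (8), where ties were broken by the summed reads of the events, so that Auts2 and Slit3, also with 8, fell outside. Zfp608 thus led both lists, with 23 of its 62 day 4 events gained and 10 of its 45 day 3 events lost. Of these genes only Adcyap1 had no kept and no day 3 top event, and all 8 of its day 4 events were gained. Its strongest, 58.7 kb from the TSS, had 497 reads at day 4 and no day 3 event. At Skap1 11 of 22 day 4 events were gained, and at Pou3f3 8 of 19, with 1 lost event at each gene.

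Lost events were most frequent at Def8 (12), the cadherin gene Cdh2 (10), Ptprd (10), Zfp608 (10), Lrp1b (9), the ephrin gene Efnb2 (8), Jarid2 (7) and Olfm4 (7), with ties broken in the same way among several genes with 7. The 12 events at Def8 stood apart. They lay within 6.79 kb of chromosome 8 (chr8:123426711-123433504, mm10) and 9 of them had no day 4 event, out of the 96 such events in all. Their control reads were 5.10 to 20.5, with a median of 9.60 against 4.60 over all lost events, their log2 fold over control was 1.76 to 3.40, 2 of 12 had a TAAT, and none had a HOXC8 or HOXC9 event at day 3. The 2 strongest Def8 events with no day 4 event, at chr8:123429162 and chr8:123432645, had a HOXC6 event of unpatterned EBs within 100 bp. The 2 strongest with a day 4 event, at chr8:123429827 and chr8:123431589, did not. The other Def8 events are not described in this respect, so no pattern can be read from these. The part of the control signal in the calls at Def8 was not tested. At Cdh2 10 of 19 day 3 events were lost, at Lrp1b 9 of 15 and at Efnb2 8 of 14.

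The 13 gene lists covered motor neuron, patterning and neuronal genes, and counts of gained and lost events nearest to their members were read against 26.7% gained and 33.6% lost over all top events. Of all lists with 20 or more events on each day, the list named motor neuron identity had the highest share of gained events. It also held the guidance ligand genes Slit2 (5 gained of 10 day 4 events) and Slit3 (8 of 17). At the 11 of its 14 genes with an event, 27 of 60 day 4 events were gained (45.0%, 33.1 to 57.5%), 18 of them with no day 3 event, and 6 of 35 day 3 events were lost (17.1%, 8.10 to 32.7%). These counts rest on few genes, because Mnx1, Isl1 and the guidance ligand genes Slit2 and Slit3 supplied 22 of the 27 gained events. Neighbouring events at a gene are not independent, and the lists were written with earlier results of these data known.

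Mnx1, which encodes the homeodomain factor HB9 of postmitotic motor neurons, had 7 day 4 top events, 5 of them gained, and 2 day 3 top events, 1 of them lost. The 3 strongest gained ones had 957, 404 and 358 reads at day 4, and only the first had a day 3 event within 100 bp (37.7 reads). They lay 7.71 to 8.86 kb upstream of the TSS. The second, at chr5:29486181, lay within 1 kb of a day 3 top event at chr5:29485947. The third, at chr5:29487325, lay within 1 kb of the first, at chr5:29487039, so this stretch already had day 3 events. The kept pair, 7.53 and 7.48 kb upstream, stood at 309 and 274 reads at day 4, beside a shared day 3 event of 75.6. Isl1, which encodes a LIM factor needed to form motor neurons, had 11 day 4 events, 4 gained, and lost none of its 7 day 3 events. Its strongest kept event, 552 kb from the TSS, had 441 reads at day 3 and 1902 at day 4. Slit3 had 8 gained of 17 day 4 events and 1 lost of 7 day 3 events, and its strongest gained event with no day 3 partner, in an intron, had 324 reads. Slit2 had 5 gained of 10 day 4 events and 2 lost of 7 day 3 events. The other members are named after their values were seen. Of these the choline transporter gene Slc5a7 had 2 gained events, Lhx3, Lhx4 and the choline acetyltransferase gene Chat had 1 each, and Isl2 and Lhx5 had kept events only.

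**Figure D5:**
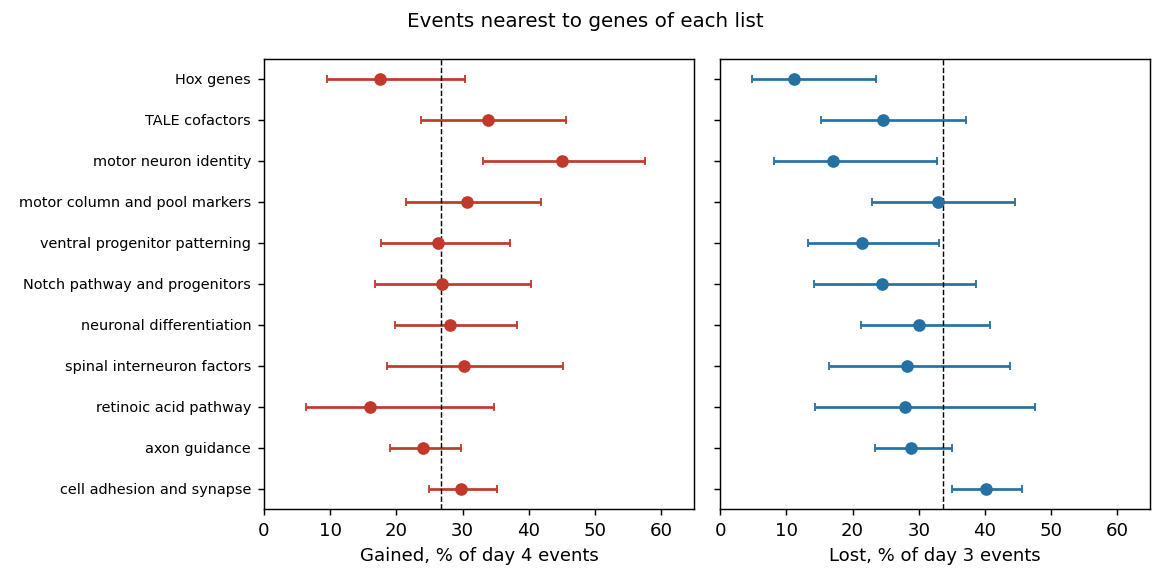
Share of day 4 events that were gained (left, %) and of day 3 events that were lost (right, %) among events nearest to the genes of each list; points are shares, error bars 95% Wilson intervals, and dashed lines the shares over all top events (26.7% and 33.6%). The motor neuron identity list, which includes Slit2 and Slit3, lies above the line for gained events (45.0%). The cell adhesion and synapse list lies above the line for lost events (40.2%).

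The Hox genes had the lowest share of lost events among the lists with 20 or more events on each day. Of 51 day 4 events nearest to 12 Hox genes, 9 were gained (17.6%, 9.57 to 30.3%), and of 45 day 3 events 5 were lost (11.1%, 4.84 to 23.5%), under the 33.6% of all events. At Hoxb5, 4 of 4 day 4 events were kept, and at Hoxb3 5 of 6. Hoxc4 held 5 of the 9 gained events, out of its 12 day 4 events, including a promoter event with 439 reads at day 4 and no day 3 event. A kept event 966 bp downstream of a Hoxc4 TSS had 478 reads at day 3 and 2598 at day 4.

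TALE cofactor genes had 23 gained of 68 day 4 events (33.8%, 23.7 to 45.7%) and 14 lost of 57 day 3 events (24.6%, 15.2 to 37.1%), with intervals that held the overall shares. Meis1 alone had 30 day 4 events, 8 of them gained. Pbx3 had 5 gained of 8 day 4 events, and Meis2 4 of 11. A gained event 332 kb upstream of Meis1 had 47.1 reads at day 3 and 529 at day 4.

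The ventral progenitor list had 20 gained of 76 day 4 events (26.3%, 17.7 to 37.2%) and 14 lost of 65 day 3 events (21.5%, 13.3 to 33.0%), the latter just under the 33.6% of all events. Nkx6-1 had 27 day 4 events, 7 gained, the strongest of them 233 kb from the TSS with 727 reads and no day 3 event. Olig2, the motor neuron progenitor factor, had 2 gained of 8 day 4 events and 2 lost of 7 day 3 events, Irx3 4 gained of 10, and Foxa2, a floor plate factor, 1 gained of 7. Notch and progenitor genes had 14 gained of 52 (26.9%) and 11 lost of 45 (24.4%). Dll1, a Notch ligand gene, gained none of its 5 day 4 events and lost 2 of 7, whereas Sox9 gained 4 of 8. Spinal interneuron factors had 13 gained of 43 (30.2%) and 11 lost of 39 (28.2%). Pou4f1, a sensory and interneuron factor gene, gained 3 of 6, and all 4 of the Uncx events were kept.

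Neuronal differentiation genes had 25 gained of 89 day 4 events (28.1%) and 25 lost of 83 (30.1%). Ebf1 had 2 gained of 15, Map2 2 of 11, and Elavl4, which encodes a neuronal RNA-binding protein, 3 of 9. Both gained events at Map2, which encodes a dendritic microtubule protein, lay within 1 kb of a TSS, but of different annotated TSSs. They had 344 and 246 reads at day 4 and no day 3 event within 100 bp. The first, at chr1:66250988, lay just past that limit from a kept event at chr1:66250882. The kept event had 210.3 reads at day 3 and 976 at day 4, so HOXC6 was already bound at this promoter at day 3. The second gained event, at chr1:66321814, lay at another promoter of the gene, to which this does not apply. Motor column and pool markers had 23 gained of 75 (30.7%) and 23 lost of 70 (32.9%). Foxp1, the factor of limb-innervating motor neurons, gained 2 of 13 and lost 1 of 11, and Fign gained 6 of 12. Mecom gained 2 of 9 and Zeb2 gained 1 of 7 and lost 3 of 9. Retinoic acid pathway genes had 4 gained of 25 (16.0%, 6.40 to 34.7%), and Rarb, a retinoic acid receptor gene, had 3 of these and 5 lost of 12 day 3 events.

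Cell adhesion and synapse genes had the highest share of lost events among the lists with 20 or more events on each day. At 41 of 42 genes, 131 of 326 day 3 events were lost (40.2%, 35.0 to 45.6%), and 89 of 299 day 4 events were gained (29.8%, 24.9 to 35.2%). Ptprd lost 10 of 21, Tenm3 5 of 20, Tenm2 5 of 21 and Nrxn3 5 of 16, while Cdh11, chosen after its values were seen, lost 7 of 10. Axon guidance genes had 60 gained of 250 (24.0%, 19.1 to 29.7%) and 67 lost of 232 (28.9%, 23.4 to 35.0%). Robo1 gained 6 of 21, Robo2 5 of 27 and Plxna2 3 of 18, and Robo2 lost 6 of 28. Pluripotency genes (1 gained of 10 and 2 lost of 10) and caudal axis genes (2 gained of 3 and 3 lost of 4) had too few events for a comparison.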

How the data were processed

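The authors aligned ChIP-seq reads to mm10 with Bowtie 1.0.1 by the submitters' processing notes, which also name Picard 2.8.2 and edgeR 3.22.5, and called events with MultiGPS over the pooled libraries of each list. The deposited values are, per event, estimated ChIP and control read counts (expected counts), a log2 fold over scaled control, and a log2 q-value, treated as a score. The deposited columns of comparisons between conditions (log2 fold changes and p-values from edgeR) were not used. Events were matched by position. Genes came from GENCODE M21 and sequence from GRCm38.p6, the assembly of mm10. Each event was given the protein-coding gene with the nearest TSS. Shares carry 95% Wilson intervals. Functions were tested on simulated positions. Named genes were the 8 with most events per class and up to 4 with most events per list, with at least 2 events. Sites shown were the 3 strongest per class. Classes and lists were chosen with earlier results of these data known. Python 3.11.15 and pandas 2.3.3 were used. Some genes that the rule names are not reported here.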

Additional observations from a re-analysis of the deposited data

How the results depend on the processing

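Both lists pool their libraries, so leaving out a library gave no values, and Dox time, control library and signal fraction differ between the days. No paired analysis was possible because the lists hold no values per replicate. Of 152 alternative values for 20 shares, 99 stayed within the interval of the reported value. In 7 of 7 other settings lost events had the lowest MEIS, HOXC9, TTTAT and TAAT shares and the highest ATCAAT share, while the order of promoter shares (a TSS within 1 kb) varied. The order of kept and gained events turned for TAAT at 50 bp (78.6% of kept, 77.8% of gained), and for HOXC9 of day 4 when ranked by q-value (73.9% and 72.6%), with q-values under 1e-6 (73.0% and 72.7%) and against every event (73.0% and 72.6%).

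With the top 5000 events the gained share was 29.0% and the lost share 35.1%. TAAT then stood at 79.0% of kept, 81.2% of gained and 71.9% of lost events, MEIS at 56.1%, 50.6% and 23.7%, HOXC9 of day 4 at 79.6%, 83.9% and 46.9%, and the promoter share of lost events was 4.62%. Against every event of the other day, the gained share fell to 13.8% and the lost share to 0.960%. MEIS then stood at 44.4%, 33.2% and 4.17%, and at lost events promoters made up 14.6%, TAAT 54.2% and HOXC9 10.4%. The lost class of this setting held only 96 events, 9 of them at Def8. A distance of 50 bp gave 32.2% gained and 35.3% lost, with MEIS at 38.2% of gained and 15.1% of lost events, and 200 bp gave 23.5% gained. Among ranks 5001 to 10000, a setting added after the data were seen, as were all settings for MEIS, HOXC9, TTTAT and ATCAAT, 40.8% were gained and 53.6% lost, TAAT stood at 76.2% of kept events, MEIS at 32.0% of kept and 30.2% of gained, and HOXC9 at 62.2% and 69.2%. Promoter shares in the order kept, gained and lost were 11.6%, 11.8% and 12.0% within 2.5 kb, and 3.18%, 3.67% and 3.54% with protein-coding TSSs. TAAT shares were 91.5%, 92.2% and 87.3% within 100 bp, and 26.3, 28.2 and 18.7 points above the flanks. Ranking by q-value gave HOXC9 at 73.9% of kept events, MEIS at 33.2% of gained and promoters at 6.51% of lost. The causes of these shifts were not tested beyond the settings themselves.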
